A study of Homo sapiens with 4 samples.

Results

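N6-methyladenosine (m6A) peaks at stop codons were the 1372 lines of the deposited peak comparison that carry the authors' region label for stop codons, with no filter on fold change or p. They make up 14.5% of the 9466 listed peaks and lie on 1366 of 6763 genes. Cells of BEAS-2B, an immortalised epithelial line from human bronchus, carried either a METTL16-overexpressing plasmid or an empty control plasmid, and nothing else is labelled as differing between the arms. Each arm gave 1 input library and 1 library enriched with an m6A antibody (MeRIP-seq), so there were 4 libraries and no replicates. The labels name no separate cultures, and no source used here gives the promoter of the plasmid or the share of cells that took it up. METTL16 has no line in the table, so its level was not analysed here.

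m6A is a common internal mark of messenger RNA. A complex of METTL3, METTL14, WTAP and partners places most of it, and in human transcripts it gathers around stop codons and in the adjoining 3'UTR, where reader proteins such as YTHDF2 bind it. METTL16 is a separate methyltransferase with few well established targets, among them the U6 small nuclear RNA and hairpins in the 3'UTR of MAT2A, the gene of the enzyme that makes S-adenosylmethionine, the methyl donor. The comparison asked how m6A differed between the plasmid with METTL16 and the empty plasmid. A stop codon peak is a region the authors named, and its mapped bases were not set against annotated stop codons here.

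Values of m6A are the log2 fold changes of the authors' deposited table, where positive values are higher in the METTL16 arm and negative values are lower. A log2 fold change of 1 or more in size is called 2-fold. Every listed peak has p below 0.05 in that table, and peaks without that support are outside all counts. The p-values compare single libraries, not replicated conditions. Levels of input RNA are FPKM (sequenced fragments per kilobase of RNA, relative to the library total), and sequencing depth is unknown. Enrichment levels of the separate immunoprecipitates were not analysed here, so each peak has 1 m6A value and each gene has 2 input values. Of the epithelial markers, 4 of 13 had a listed peak, among them KRT8 with input FPKM of 54.2 in the METTL16 arm and 46.1 in the control, KRT18 with 59.0 and 59.6, and ITGB4 with 0.69 and 0.78. Of the other markers, 3 of 8 mesenchymal, 1 of 6 haematopoietic and 0 of 4 endothelial genes were listed. VIM, the mesenchymal intermediate filament vimentin, had the highest level of the markers shown, with FPKM of 510.0 and 499.0. COL1A1 had 2.28 and 2.33, PDGFRB had 1.55 and 1.51, and CD68, a macrophage marker, had 57.7 and 41.6. None of the listed markers had a stop codon peak, and a gene outside the table has no known level here.

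Most stop codon peaks had a slightly lower m6A value in the METTL16 arm. Their median log2 fold change was -0.29 (95% interval -0.30 to -0.27), and the middle 50% of values lay between -0.47 and -0.16. All values ran from -5.15 on CCR10, a chemokine receptor gene with little input RNA, to 4.93 on CDH6, a cadherin gene. Of the 1372 peaks, 237 had a value above 0, a share of 17.3% (exact Clopper-Pearson interval 15.3 to 19.4), against 28.5% of all listed peaks. This direction depends on the scaling between libraries: 669 stop codon peaks lay between 0 and the median of all listed peaks, -0.38. Centred on that median, the stop codon peaks had a median of 0.10, and 66.0% of them lay above 0. Such intervals describe the counting of peaks alone, since peaks of 1 library are no replicates.

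Few stop codon peaks reached 2-fold. There were 167, or 12.2% (10.5 to 14.0), against a background of 43.7% over all listed peaks. By direction, 61 were higher, 4.45% against 16.5% of all peaks, and 106 were lower, 7.73% against 27.2%. The spread was the narrowest of the 4 peak labels compared. The distance from the lower to the upper quartile was 0.31 on the log2 scale, against 0.82 for start codon peaks, 1.27 for peaks labelled 3'UTR and 1.51 for exonic peaks. The share at 2-fold was 38.0% of 516 start codon peaks, 39.5% of 4058 peaks labelled 3'UTR and 39.0% of 1297 exonic peaks.

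**Figure D1:**
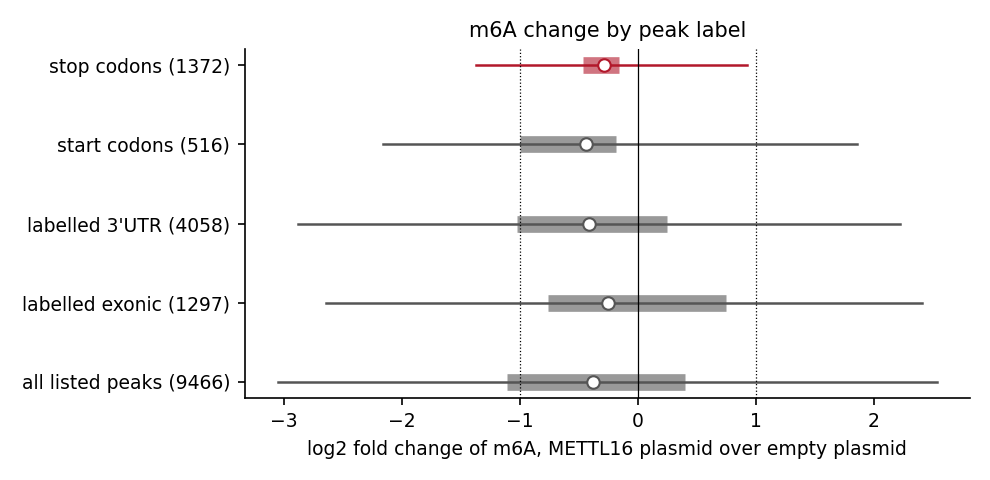
Log2 fold change of m6A (x axis, METTL16 plasmid over empty plasmid) for peaks of each label, with the number of peaks in brackets. Open circles are medians, thick bars run from the lower to the upper quartile, thin lines run from the 5th to the 95th percentile, and dotted lines mark 2-fold. The stop codon peaks have a quartile distance of 0.31, against 1.51 for all listed peaks.

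At an adjusted p below 0.05 in the authors' deposited table, 473 stop codon peaks were called, or 34.5% (32.0 to 37.1). Of these, 417 were lower, 30.4% against 19.3% of all listed peaks, and 56 were higher, 4.08% against 6.28%. Most of these calls were small in size: 38 of the 473 reached 2-fold, a share of 8.03%. Among called peaks of the other labels that share was 29.7% for 3'UTR, 31.6% for exonic and 30.6% for start codon peaks. The adjusted p was empty for 8 stop codon peaks, and all 8 were at 2-fold or more.

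The size of the m6A value followed the level of the transcript. In 5 equal groups of stop codon peaks by mean input FPKM, the median log2 fold change was -0.62 in the lowest, -0.40, -0.29 and -0.24 in the next groups, and -0.16 in the highest. The share at 2-fold was 44.3% (121 of 273 peaks) in the lowest group, then 8.79%, 3.31%, 1.83% and, in the highest, 1.47% (4 of 273). Across 1364 peaks with a level, the size of the log2 fold change and the mean FPKM had a Spearman correlation of -0.71, which is given as a description, since all peaks share the same libraries. The 152 peaks on genes that did not reach 1 FPKM in both inputs held 98 of the 167 peaks at 2-fold. How far the listing at p below 0.05 enters this pattern was not tested.

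The difference between labels held within groups of like transcript level. With the same limits of FPKM, peaks labelled 3'UTR reached 2-fold in 74.3% of the lowest group, then in 49.6%, 30.8%, 21.0% and 6.84%. For exonic peaks the shares were 83.6%, 50.0%, 29.6%, 14.9% and 9.09%, and for start codon peaks 64.0%, 42.6%, 36.8%, 29.1% and 14.7%. The stop codon share was the lowest of the 4 labels in each of the 5 groups.

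**Figure D2:**
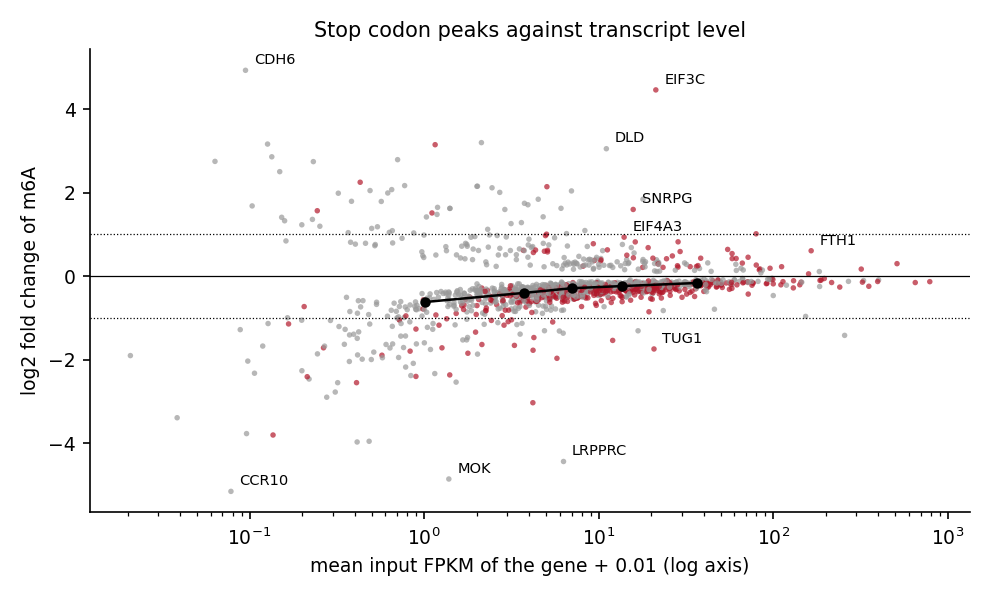
Log2 fold change of m6A (y axis) at each stop codon peak against the mean input FPKM of its gene plus 0.01 (log x axis). Red points have an adjusted p below 0.05 in the authors' deposited table, black circles joined by a line are the medians of 5 equal groups, and dotted lines mark 2-fold. The points narrow from left to right, with medians from -0.62 to -0.16.

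Short peaks held most of the large values. The span of a peak runs from its first to its last genomic base, introns included, and the median span was 2131.5 bases. Of 133 peaks that span up to 500 bases, 55 reached 2-fold, or 41.4%. Of 219 longer peaks up to 1000 bases, 58 did, or 26.5%. The share was 6.19% above 1000 and up to 2000 bases, 4.64% up to 5000, 5.60% up to 20000 and 4.0% beyond. Over genes with a mean FPKM of at least 5, a limit chosen after the values were seen, the shortest peaks still had the highest share, 16.2%, followed by 5.79% for those up to 1000 bases. In the same classes of span, peaks labelled 3'UTR reached 2-fold in 58.0% of 1996 peaks up to 500 bases and in 25.3% of 675 longer peaks up to 1000 bases, the latter within the interval of the stop codon peaks (20.8 to 32.9). Their shares then were 14.4% up to 2000 bases, 19.9% up to 5000, 24.2% up to 20000 and 31.5% beyond. The 3'UTR peaks in the shortest class had a median span of 250 bases, against 325 for the stop codon peaks.

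Position within the gene was read from RefSeq gene spans on the same assembly, for 1358 peaks whose gene matched. The 3' edge of a peak lay a median of 899 bases before the last base of the gene. It was at the last base for 238 peaks and beyond it for 131. For 93 peaks the edge lay over 10000 bases before the gene end, and 32 of them, or 34.4% (24.9 to 45.0), reached 2-fold. The share was 8.40% beyond the gene end, 9.66% at it, 12.2% within 1000 bases before it and 9.48% from there to 10000 bases. The distant peaks had a median FPKM of 4.25 and a median span of 1325 bases, both below the values of all stop codon peaks, 7.02 and 2131.5. On genes with a mean FPKM of at least 5, 7 of 36 distant peaks reached 2-fold, or 19.4%, against 0%, 1.89%, 1.36% and 1.75% in the other classes. The limit of 10000 bases was chosen after the values were seen.

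**Figure D3:**
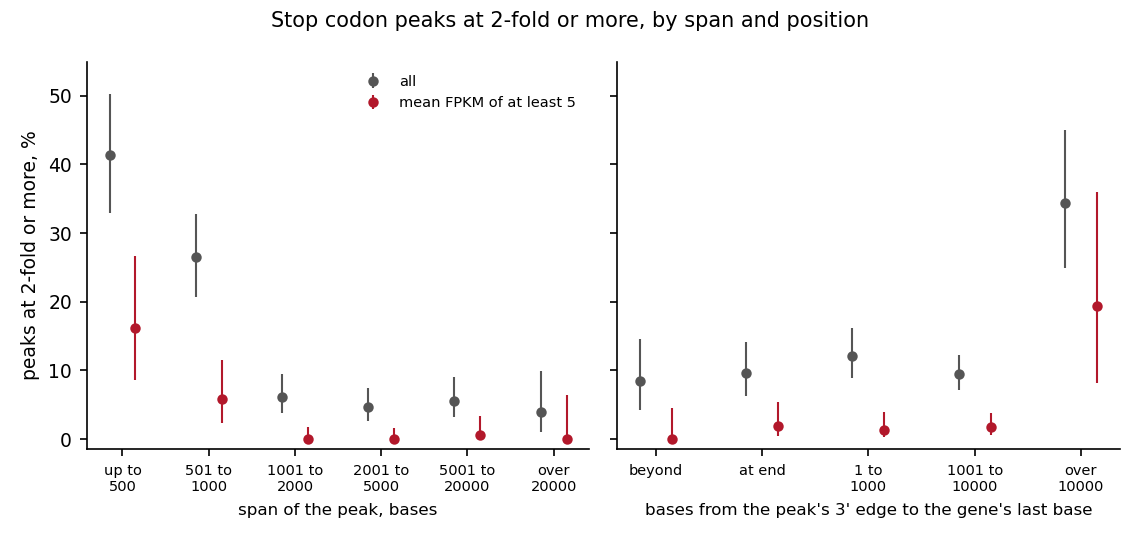
Share of stop codon peaks at 2-fold or more (y axis, percent) by the span of the peak in bases (left) and by the distance from the peak's 3' edge to the last base of its gene (right). Points are shares and bars are exact 95% intervals; grey is all peaks, red is genes with a mean FPKM of at least 5. The share is 41.4% for peaks of up to 500 bases and 34.4% for peaks over 10000 bases from the gene end.

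Of the 12 highest values among genes with a symbol and 1 FPKM or more in each input, 3 had an adjusted p below 0.05. EIF3C, which encodes a subunit of translation initiation factor 3, had a peak at chr16:28734805-28735727 (hg38, plus strand). Its input FPKM was 21.1 in the METTL16 arm and 21.4 in the control arm. The log2 m6A value of this peak was 4.46 with an adjusted p of 1.52e-10 in the authors' deposited table. EIF3C has a near-identical copy, EIF3CL, so its reads may be split between both genes and the value is uncertain.

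LCORL, a gene of a nuclear DNA-binding protein, had a peak at chr4:17893332-17893481, 52145 bases before its gene end. The authors' deposited table gives it a log2 m6A value of 3.15 with an adjusted p of 0.0298, at FPKM of 1.21 and 1.09. HSPA14, a member of the Hsp70 chaperone family that works at the ribosome, had a log2 m6A value of 2.14 with an adjusted p of 0.0306 in the authors' deposited table. Its input FPKM was 5.22 and 4.87, and its peak, chr10:14871570-14871741, ends at the last base of the gene.

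The other 9 of these 12 values had an adjusted p above 0.05 or none. DLD, the dihydrolipoamide dehydrogenase of the pyruvate dehydrogenase complex, stood at 3.05 in the authors' deposited table, with FPKM of 10.2 and 11.9 and no adjusted p. DUS3L, a tRNA dihydrouridine synthase, stood at 3.2 in the same authors' deposited table, also without an adjusted p. ZNF205, a zinc finger gene, CLEC16A, which acts in mitophagy, MIPEP, a mitochondrial peptidase, GOLGA8A, a golgin of a multicopy family, and TTC23, a protein of cilia, ranged from 2.01 to 2.15 in the authors' deposited table. H4C15, a histone H4 gene with near-identical copies, and GOSR2, a SNARE protein of the Golgi, both had 1.84 in the authors' deposited table. None of these genes was 2-fold apart in input.

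Among the 12 lowest values, 7 had an adjusted p below 0.05. DHCR7, the enzyme of the last step of cholesterol synthesis, had a log2 m6A value of -1.97 with an adjusted p of 0.0424 in the authors' deposited table. Its peak, chr11:71437657-71437756 on the minus strand, spans 100 bases, and its input FPKM was 5.18 in the METTL16 arm and 6.33 in the control. EHHADH, a bifunctional enzyme of peroxisomal fatty acid oxidation, had -2.37 with an adjusted p of 0.0143 in the authors' deposited table, at FPKM of 1.38 and 1.41. MRM1, a methyltransferase of mitochondrial ribosomal RNA, had -1.85 with an adjusted p of 0.00159 in the authors' deposited table, at FPKM of 1.74 and 1.81.

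TUG1 is a long noncoding RNA, and still carried the stop codon label at chr22:30969595-30969969. Its log2 m6A value was -1.74 with an adjusted p of 0.0182 in the authors' deposited table, at FPKM of 20.7 and 20.8. RAI1, a transcriptional regulator whose loss causes Smith-Magenis syndrome, had -1.77 with an adjusted p of 0.0359 in the authors' deposited table. CPNE7, a calcium-dependent membrane-binding copine, had -1.66 with an adjusted p of 0.00440 in the authors' deposited table. BIN3, a protein with a membrane-shaping BAR domain, had -3.03 with an adjusted p of 0.000298 in the authors' deposited table, at FPKM of 4.35 and 4.03.

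The 5 remaining low values were MOK, a protein kinase, at -4.86, LRPPRC, which stabilises mitochondrial messenger RNA, at -4.44, DNAJA4, a co-chaperone, at -2.54, MVD, an enzyme of the mevalonate pathway, at -2.33, and PRTFDC1, at -1.87, all from the authors' deposited table. The first 4 have no adjusted p there and the last has 0.219. LRPPRC had input FPKM of 6.19 and 6.38, and its peak spans 100 bases.

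Over all input levels, 38 peaks combined 2-fold with an adjusted p below 0.05, and 9 of them were higher. Besides EIF3C, LCORL and HSPA14, these were SNRPG, RPL3, ZER1, PTER, SLC35F3 and MAP10, a set named after its values were seen. RPL3, a protein of the large ribosomal subunit, had FPKM of 79.4 and 80.2 and a log2 m6A value of 1.01 in the authors' deposited table. Ribosomal protein genes have many processed pseudogenes, so the reads of RPL3 may be shared with them. Of the 29 lower peaks, TPR, a protein of the nuclear pore basket, was among the better expressed, with FPKM of 12.01 and 12.04 and a log2 m6A value of -1.54 in the authors' deposited table. FZD9, a Wnt receptor, was the lowest at -3.80 in the authors' deposited table, with FPKM of 0.14 and 0.11.

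The 12 smallest p-values lay mostly on abundant transcripts, and 11 of the 12 peaks were under 2-fold. FTH1, the heavy chain of the iron store ferritin, had the smallest p of all stop codon peaks, 7.87e-91, with a log2 m6A value of 0.61 in the authors' deposited table. Its input FPKM was 166.7 in the METTL16 arm and 163.3 in the control. The FTH1 peak spans 7838 bases and overlaps a listed peak of BEST1 on the other strand. The distance from its 3' edge to the last base of FTH1 was -4492 bases, so the peak runs beyond the gene. FTL, the ferritin light chain, chosen after its value was seen, had 0.30 with an adjusted p of 9.32e-09 in the authors' deposited table, at FPKM of 510.4 and 513.9.

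SNRPG, a core protein of spliceosomal small nuclear ribonucleoproteins, was the exception at 2-fold. Its log2 m6A value was 1.60 and p = 1.65e-42 in the authors' deposited table. Its input moved the opposite way, with FPKM of 7.59 in the METTL16 arm and 23.9 in the control, the only lower 2-fold input change on the log2(FPKM + 1) scale among genes with a stop codon peak and 1 FPKM or more in either input. The authors' deposited q-value of expression for SNRPG was not below 0.05. More m6A in the immunoprecipitate and less input RNA cannot be told apart here.

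The small p-values with a higher m6A value included 2 genes active in mitosis. CCNB1, the cyclin that drives entry into mitosis, had a log2 m6A value of 0.64 with an adjusted p of 7.01e-24 in the authors' deposited table, at FPKM of 54.4 and 55.3. HMMR, a spindle and hyaluronan-binding protein, had 0.68 with an adjusted p of 2.89e-19 in the authors' deposited table, at FPKM of 17.9 and 20.5. Further genes of the spindle, named after their values were seen, were KIF2C, a microtubule-depolymerising kinesin, at 0.82, MAPRE1, which tracks microtubule plus ends, at 0.45, STMN1, a tubulin-binding protein, at 0.23, and TPX2, a spindle assembly factor, at 0.15, each with an adjusted p below 0.05 in the authors' deposited table. Others of this kind, also named after their values were seen, were called lower in the authors' deposited table: KIF18B, a mitotic kinesin, at -0.41, CENPB, a centromere protein, at -0.33, CENPX, also of centromeres, at -0.36, TUBB, a beta tubulin, at -0.14, FOXM1, a transcription factor of mitotic genes, at -0.21, and MKI67, the proliferation marker, at -0.11. Of 15 stop codon peaks on genes that the deposited table places in the KEGG cell cycle pathway, 2 lay above 0 (13.3%, against 17.3% of all stop codon peaks). Of these 15 peaks, 1 was called higher and 7 were called lower, against 4.08% and 30.4% of all stop codon peaks. RPS27A, which encodes ubiquitin fused to a ribosomal protein, had 0.42 with an adjusted p of 6.26e-12 in the authors' deposited table.

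The other 7 of the 12 smallest p-values were lower and small in size. IFI6, an interferon-induced gene, had -0.24, ZNFX1, an antiviral RNA sensor, -0.21, and B2M, the light chain of MHC class I, -0.15 in the authors' deposited table. The peaks of IFI6 and ZNFX1 run beyond their genes, with distances to the last base of -4008 and -7954 bases. ITGA5, the fibronectin receptor subunit, had -0.29, NFE2L1, the transcription factor of proteasome genes, -0.22, and SLC16A3, a lactate exporter, -0.34 in the authors' deposited table. All 7 values lie between 0 and the median of all listed peaks, so their sign changes when the values are centred on that median.

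**Figure D4:**
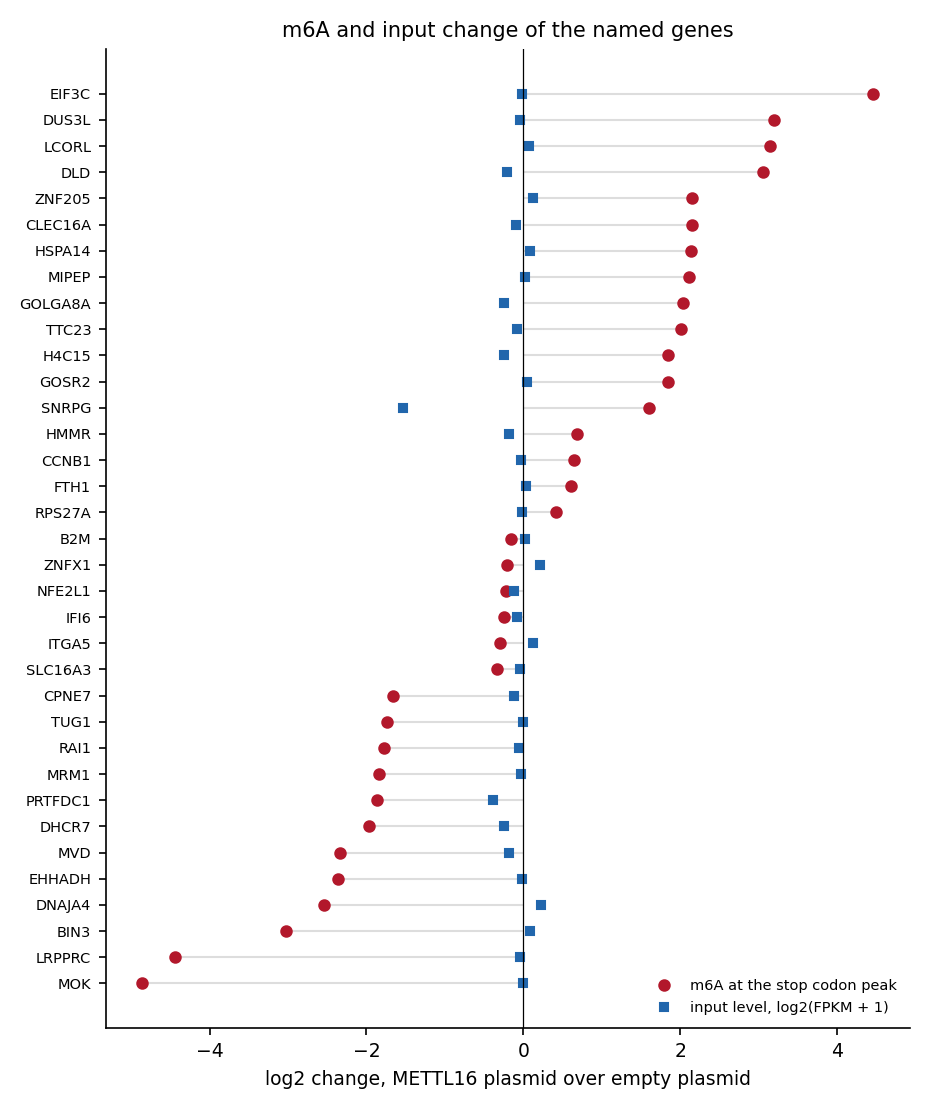
Log2 change (x axis, METTL16 plasmid over empty plasmid) of m6A at the stop codon peak (red circles) and of input level on the log2(FPKM + 1) scale (blue squares) for the 12 highest, 12 lowest and 11 of the 12 smallest-p peaks. Each point is 1 comparison of single libraries. Apart from SNRPG, the input squares lie between -0.39 and 0.22, while m6A runs from -4.86 to 4.46. SNRPG is the only gene shown whose input was lower by 2-fold on this scale. Adding 1 to the FPKM draws the squares of low genes towards 0.

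MAT2A, the best known METTL16 target, had a stop codon peak at chr2:85543672-85544121 (hg38, plus strand), which ends 1160 bases before the gene end. Its log2 m6A value was 0.19 with p = 0.00178 and an adjusted p of 0.0380 in the authors' deposited table, at FPKM of 95.1 and 96.8. The 3'UTR peak of MAT2A with the smallest p had 0.67 in the authors' deposited table, with a smaller p there than the stop codon peak. MAT2A was thus 1 of the 56 stop codon peaks with a higher call, with a smaller value than those of CCNB1 or FTH1.

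Stop codon peaks can be set beside other peaks of the same gene, whose input level they share. Of the 1366 genes, 475 had another listed peak and 891 had none. On 247 genes with a peak labelled 3'UTR, the median was -0.27 at the stop codon and -0.51 in the 3'UTR, and the median difference within a gene was 0.22 (0.16 to 0.34). The stop codon value was above the 3'UTR value in 173 genes and smaller in size in 214. It reached 2-fold in 17 genes, against 93 for the 3'UTR peak. The pairs were not matched on span, and over all listed peaks the median span was 525 bases for the 3'UTR label, against 2131.5 for stop codons. Both peaks had an adjusted p below 0.05 in 38 genes, where the median difference was 0.21 (0.07 to 0.48) and 0 stop codon peaks against 9 of the 3'UTR peaks were at 2-fold.

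In 56 of the 247 genes the 2 peaks differed in sign. The largest differences with an adjusted p below 0.05 for both peaks were those of 6 genes. ARIH1, a ubiquitin ligase, had -0.34 at the stop codon and 4.45 in the 3'UTR in the authors' deposited table, at FPKM of 4.92 and 4.50. TMEM127, a lysosomal regulator of mTOR signalling, had -0.19 and -2.44, and PDPK1, the kinase that activates AKT, had -0.49 and -2.29 in the authors' deposited table. GOLM2, a Golgi membrane protein, had -0.39 and 1.38, and PTCD1, a mitochondrial RNA-binding protein, had -0.39 and 1.22 in the authors' deposited table. MAPRE1 was the reverse, with 0.45 at the stop codon and -0.55 in the 3'UTR in the authors' deposited table. The GOLM2 peak labelled 3'UTR, chr15:44348559-44348808, lies before its stop codon peak, chr15:44409666-44414078, on the plus strand. It is thus not the 3'UTR that follows this stop codon peak. The stop codon peak of PTCD1 overlaps a listed peak of another gene, BUD31, so its contrast may not be one within PTCD1 alone.

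**Figure D5:**
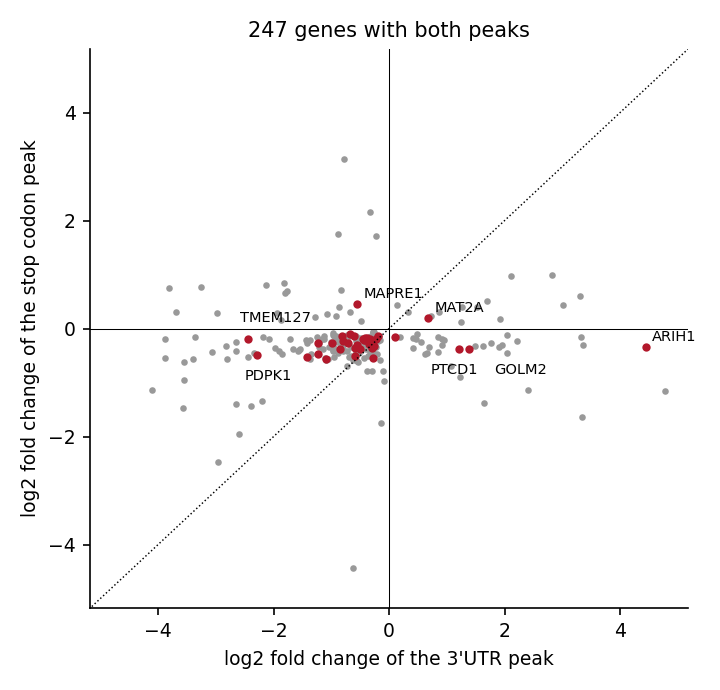
Log2 fold change of the stop codon peak (y axis) against that of the 3'UTR peak with the smallest p (x axis) in 247 genes with both. Red points have an adjusted p below 0.05 for both peaks in the authors' deposited table, and the dotted line marks equal values. The points spread along the x axis more than along the y axis, with 93 of the 3'UTR peaks and 17 of the stop codon peaks at 2-fold. The pairs were not matched on span.

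Other labels gave smaller sets of genes. On 155 genes with an exonic peak the medians were -0.27 at the stop codon and -0.14 in the exon, with a median difference of -0.14 (-0.26 to -0.01), and 15 stop codon peaks against 44 exonic peaks were at 2-fold. In the 32 of these genes with an adjusted p below 0.05 for both peaks, the medians were -0.15 and 0.33, with a median difference of -0.24 (-0.61 to 0.01). On 51 genes with a 5'UTR peak the medians were -0.22 and -0.75, and 5 against 27 were at 2-fold. On 51 genes with a start codon peak the medians were -0.26 and -0.35, with an interval of the difference from -0.02 to 0.29. On 49 genes with an intronic peak the medians were -0.22 and -1.65, and 6 against 41 were at 2-fold. The median difference was 1.39, with an interval from -0.28 to 2.14 that includes 0. The stop codon value was above the intronic value in 31 of these genes and below it in 18.

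There were 6 genes with 2 stop codon peaks each. EPB41L5, a protein of epithelial polarity, was the only 1 of them with values of opposite sign, 1.26 and -0.60 in the authors' deposited table, neither with an adjusted p below 0.05. BIN3 had -3.03 and -0.39, and SLC16A3 had -0.34 and -1.31 in the authors' deposited table. The SLC16A3 peak at -1.31, chr17:82260944-82261129, has an adjusted p of 0.0611 there. It lies outside the RefSeq span of SLC16A3, beyond the gene end, so it may not belong to this gene. ZFP41, a zinc finger gene, had -0.59 and -0.27, and AHNAK, a giant scaffold protein, had -0.18 and -0.46 in the authors' deposited table. The 2 ZFP41 peaks are not separate regions, since the span of the first lies within that of the second. The second runs beyond the gene, with a distance to the last base of -11951 bases. Their adjusted p-values in the authors' deposited table were 0.0752 and 0.223. RNF213, a large ubiquitin ligase, had almost equal values of -0.17 and -0.16 in the authors' deposited table, with peak edges 2269 and 78174 bases from its gene end.

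Some genes that write, erase and read m6A had stop codon peaks. Of 28 genes, 14 had a listed peak and 5 a stop codon peak (over all genes of the table, 20.2% had one). All 5 lay below 0, but only 17.3% of all stop codon peaks lay above 0, so 5 peaks are too few to differ from that share. Their median was -0.14, against -0.29 over all stop codon peaks. RBM15B, an adaptor of the methyltransferase complex, was the only 1 with an adjusted p below 0.05, with a log2 value of -0.25 and an adjusted p of 0.0110 in the authors' deposited table. ALKBH5, an m6A demethylase, had -0.26, YTHDF1, a reader, -0.14, WTAP, a subunit of the methyltransferase complex, -0.13, and YTHDF2, a reader linked to RNA decay, -0.096 in the authors' deposited table. None of the 5 differed by 2-fold. Over all stop codon peaks, 34.5% had an adjusted p below 0.05.

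Of 23 genes of translation termination and nonsense-mediated decay, 12 had a listed peak and 3 a stop codon peak. EIF4A3 and RBM8A, both subunits of the exon junction complex, were called higher, against 4.08% of all stop codon peaks, and 2 of 3 members is a description of few genes. EIF4A3 had a log2 m6A value of 0.93 with an adjusted p of 9.30e-07 in the authors' deposited table, at FPKM of 13.4 and 14.6. RBM8A had 0.63 with an adjusted p of 7.48e-06 in the authors' deposited table, at FPKM of 10.4 and 12.04. ETF1, the release factor that reads stop codons, had -0.087 with an adjusted p of 0.186 in the authors' deposited table.

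Of 25 genes of cleavage and polyadenylation, 18 had a listed peak and 5 a stop codon peak, none with an adjusted p below 0.05, against 34.5% of all stop codon peaks. Their median was -0.50, against -0.29 over all stop codon peaks, with WDR33 at -0.72, CPSF3 and CPSF4 at -0.50, and CSTF2T and CPSF2 at -0.20 in the authors' deposited table. WDR33 and CPSF4 recognise the polyadenylation signal and CPSF3 cuts the transcript. Of 17 selenoprotein genes, whose coding part holds a stop codon read as selenocysteine, 7 had a listed peak and 0 had a stop codon peak, too few genes to set against the 20.2% over all genes of the table.

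Input levels of the genes with a stop codon peak were nearly equal in both arms. Over 1237 genes that reached 1 FPKM in at least one arm, the median change of log2(FPKM + 1) was -0.01 (-0.02 to -0.0003), against -0.02 over 5467 genes of the table. Of the 1237, 99.4% lay within 1.5-fold. There was 1 gene higher and 1 lower at 2-fold, against a background of 0.146% in each direction. The higher gene, ENSG00000285976, had FPKM of 48.0 in the METTL16 arm and 3.03 in the control, with a log2 m6A value of -0.15 in the authors' deposited table. The lower gene was SNRPG. The authors' deposited q-value of expression was below 0.05 for ENSG00000285976 and not for SNRPG. SAMD10, with FPKM of 0.28 and 1.10, was under 2-fold on this scale, and with a pseudocount of 0.1 in place of 1 the 2 genes became 4.

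Other input changes, listed after their values were seen, stayed under 2-fold on this scale. KLF4, a transcription factor of epithelial differentiation, had FPKM of 14.8 in the METTL16 arm and 8.62 in the control, and its m6A value was -0.25 in the authors' deposited table. PMAIP1, which encodes the apoptosis factor NOXA, had FPKM of 61.4 and 38.2 and an m6A value of -0.13 in the authors' deposited table. LIF, a cytokine gene, had FPKM of 18.3 and 25.3 and an m6A value of -0.18 in the authors' deposited table. Across genes the m6A value and the input change had a Spearman correlation of -0.12, a description over genes that share the input libraries.

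The span of 120 stop codon peaks overlapped another listed peak, in 113 cases one of another gene and in 111 cases one on the other strand. Examples are FTH1 with BEST1, SLC16A3 with CSNK1D, and PTCD1 with BUD31. Libraries were made with a strand-marking dUTP step per the labels, while no source used here states whether counting used strand. Without the peaks that overlap a peak of another gene, 59 were higher and 98 lower at 2-fold.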

How the data were processed

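The authors' deposited table compares the METTL16 arm with the control arm peak by peak. Per the file headers, the authors deposited for each peak a log2 fold change of m6A with raw and adjusted p-value, FPKM per gene in both inputs, and the fold, p-value and q-value of expression. Per the submitters' processing notes, reads were trimmed with fastp 0.19.4 and coordinates refer to hg38. The sources used here name no aligner, peak caller or scaling. Deposited start positions count from 0: on the minus strand 142 starts lay 1 base before the RefSeq gene start and 0 at it. Coordinates are printed 1-based.

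Peaks were counted with Python 3.11.15, pandas 2.3.3, numpy 2.4.6 and scipy 1.17.1. Intervals are at 95%, exact Clopper-Pearson for shares and from binomial order statistics for medians. Input change was log2((FPKM + 1)/(FPKM + 1)), which understates changes of low genes. The counting steps were tested on simulated data. Since each group holds 1 library, conditions were not tested and no difference has a replicate check.

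Members, gene lists and the naming rule were chosen with earlier results of these data known. The rule took MAT2A, the 12 highest, 12 lowest and 12 smallest-p peaks with 1 FPKM or more in each input, genes with 2 stop codon peaks, the 6 largest differences from the 3'UTR, and all list members. The values of some genes that the rule or a list took are not reported here. No genome was used, so the sequence around stop codons was not analysed here. Alternatives varied the fold threshold, centring, support, span, expression filter and pseudocount.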

Additional observations from a re-analysis of the deposited data

How the results depend on the processing

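The count of 61 higher peaks at 2-fold became 114 at 1.5-fold, 106 after centring on the median of all listed peaks, 9 at an adjusted p below 0.05, 29 with 1 FPKM or more in each input and 11 at a mean FPKM of at least 5. The count of 106 lower peaks became 233, 68, 29, 40 and 9 under the same settings. The median of -0.29 turned to 0.10 with centring, which shifts every value by construction, and was -0.31 at an adjusted p below 0.05, -0.37 at a span of at most 1000 bases and -0.23 at a mean FPKM of at least 5. The share above 0, 17.3%, became 66.0% with centring, 11.8% at an adjusted p below 0.05 and 25% at a span of at most 1000 bases. With a pseudocount of 0.1, 4 genes in place of 2 differed by 2-fold in input. The filter at a mean FPKM of 5 and the removal of overlapping peaks were chosen after seeing the data. Without overlapping peaks the median was -0.28 and 18.1% lay above 0. The cause of the other changes was not tested.

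No paired analysis was possible because each group holds 1 library. The alternatives on annotated stop codons and on sequence windows were not run, since they need a genome. Depth is unknown, and peaks with p of 0.05 or more are not listed.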

Other observations

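Pathway names in the deposited table give a further view of the stop codon peaks, chosen after the values were seen and given as counts with no test. Of 47 KEGG pathways with at least 15 stop codon peaks, necroptosis had the highest share above 0, 8 of 16 peaks. Its members above 0 were the ferritin genes FTH1 and FTL, the membrane-remodelling genes CHMP1B, CHMP2B, CHMP4B and VPS4A, the histone gene H2AZ1 and the mitochondrial channel gene VDAC1. The spliceosome followed with 7 of 15 peaks (46.7%), among them SNRPG, SNRPD1, LSM3, SF3B6 and BUD31, with the exon junction genes EIF4A3 and RBM8A. The ribosome pathway had 6 of 16 above 0, namely RPL3, RPL12, RPL41, RPS27A, RPSA and MRPS15. The share over all stop codon peaks was 17.3%.

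At the other end, 0 of 17 stop codon peaks of focal adhesion genes, 0 of 16 of Wnt signalling genes and 0 of 15 of thermogenesis genes lay above 0. The same held for the pathways of Cushing syndrome, with 0 of 17, and of growth hormone, with 0 of 15. MAPK signalling had 1 of 23, STMN1. These pathways were picked as those with the lowest shares of the 47. Over all listed peaks 28.5% lay above 0, against 17.3% of stop codon peaks, so a lower share is a trait of the label as a whole. Other listed peaks of the same pathways had 49 of 131 (37.4%) above 0 for focal adhesion and 18 of 54 (33.3%) for Wnt signalling. They had 42 of 110 (38.2%) for thermogenesis, 17 of 72 (23.6%) for Cushing syndrome, 29 of 63 (46.0%) for growth hormone and 29 of 125 (23.2%) for MAPK signalling. For the spliceosome it was 30 of 72 (41.7%), for necroptosis 35 of 83 (42.2%) and for the ribosome 19 of 53 (35.8%), against 50% and 37.5% at the stop codon peaks of the last 2. Pathways share genes, and the ribosome members had a median FPKM of 59.6, against 7.02 over all stop codon peaks.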
